A study of Mus musculus with 30 samples.

Results

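Complex I of the mitochondrial respiratory chain was followed through every gene on the array whose symbol begins with Ndufa, Ndufb, Ndufc, Ndufs or Ndufv, the Ndufaf assembly factors included. The rule reads the symbols alone. Of the 12147 named genes on the array, 47 had such a symbol. A gene was tested if no group lacked its value on more than 50% of arrays, and 46 of the 47 and 11463 genes in all met this.

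Inguinal mammary glands of 129sv mice aged 19 weeks were profiled on 30 Agilent 2-colour arrays. Wild-type (WT) glands were on 7 arrays and glands lacking the type I interferon receptor subunit IFNAR1 (IFNAR1-/-) were on 8. Glands of mice carrying the Her2/Neu oncogene (Her2/Neu+) were on 6 arrays, and glands with both changes (Her2/Neu+/IFNAR1-/-) were on 9. The promoter that drives the transgene, the part of Ifnar1 that was deleted and the presence of tumours in the glands are not given in the sources used here. The deposited values are log2 ratios: gland RNA, labelled with Cy5, over a universal reference mouse RNA, labelled with Cy3, so 0 means equal signal in gland and reference. A level below is such a ratio, and a change is a difference between 2 group means of it. Levels of different genes were not compared, since each is relative to the reference's own content of that RNA.

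Complex I takes electrons from NADH, passes them through a flavin and a chain of iron-sulfur clusters to ubiquinone, and pumps protons across the inner mitochondrial membrane. Its catalytic core is made partly from mitochondrial DNA and partly from nuclear genes, of which Ndufs1, Ndufs3, Ndufs7, Ndufs8, Ndufv1 and Ndufv2 are described here. The remaining subunits, called accessory, stabilise and surround that core, and assembly factors help to build it without staying in the finished enzyme. The resting mammary gland is an epithelial tree in a fat pad, and adipocytes, epithelium, muscle and brown fat all contain the complex.

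The symbols do not follow this division exactly. Among the 46 genes tested, 11 were named Ndufs or Ndufv, 27 were named Ndufa, Ndufb or Ndufc, and 8 were named Ndufaf. The 6 core genes described here were all tested. Ndufs4, Ndufs5, Ndufs6 and Ndufv3 are accessory despite their names. Ndufa11b and Ndufs6b are 2 mouse pseudogenes, and signal on their probes cannot be told apart here from that of the near-identical parent genes Ndufa11 and Ndufs6. Counts are therefore given by name and, where it matters, for the 6 core genes alone.

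Some arrays stood apart. On Her2/Neu+ array 114, 10 members were more than 2 log2 units below their own mean over all arrays, and 6 of these were among the 11 genes named Ndufs or Ndufv. The same array had a mean luminal epithelial marker level of -0.08, against 0.78 to 3.46 over IFNAR1-/- arrays and 1.58 to 2.69 over WT arrays, and a mean basal marker level of 0.01. Her2/Neu+/IFNAR1-/- array 103 had a luminal level of 0.47, a basal level of 0.03 and a brown fat marker level of 5.15, the highest of all arrays. Of the 4 tested brown fat markers, Cidea and Cox8b were at or next to the scale's limit of 6 in every group. The brown fat level therefore moves with Cox7a1 and Ppargc1a alone, and the highest Ppargc1a value of the Her2/Neu+/IFNAR1-/- group was also 6. Skeletal muscle markers were at 4.55, 4.90 and 5.17 on IFNAR1-/- arrays 41, 42 and 44 and at 4.26 on Her2/Neu+/IFNAR1-/- array 106. The mean white adipocyte marker level lay between 4.94 and 5.67. Of the 8 tested markers, Adipoq, Fabp4 and Pck1 were at the scale's limit of 6 on every array and Plin1 and Cidec at or near it on most, so this mean can show little change. The part of these cell types in the results below was not tested. In whole glands, fewer cells of a type and less RNA per cell cannot be told apart.

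The probes of the 2 altered genes checked no label. Ifnar1 had a mean level of 0.42 ± 0.92 (SD, n = 7) in WT and 0.20 ± 0.89 (SD, n = 8) in IFNAR1-/- glands, a change of -0.23 ± 0.56 (SE, limma adjusted p = 0.961), and where its probe lies relative to the deletion is not given in the sources used here. Erbb2, the mouse Her2 gene, had a mean level of 0.19 ± 0.39 (SD, n = 7) in WT and 0.51 ± 0.40 (SD, n = 6) in Her2/Neu+ glands (limma adjusted p = 0.695).

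WT glands had the highest group mean for 33 of the 46 members and the lowest for none. Her2/Neu+ glands had the lowest mean for 26 members, Her2/Neu+/IFNAR1-/- glands for 15 and IFNAR1-/- glands for 5. Mean levels were above 0 for 39 members in WT, 40 in IFNAR1-/-, 25 in Her2/Neu+ and 33 in Her2/Neu+/IFNAR1-/- glands.

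The median over the members on each array gives the same picture by gland. In WT it ran from 0.25 through a median of 0.83 to 1.37, and in IFNAR1-/- from 0.10 through 0.45 to 1.05. In Her2/Neu+ it ran from -0.26 through 0.05 to 1.00, and in Her2/Neu+/IFNAR1-/- from -0.04 through 0.24 to 0.89. All 4 groups overlapped, and the top array of each oncogene group, Her2/Neu+ 115 and Her2/Neu+/IFNAR1-/- 103, lay within the WT range. Group means of these array medians were 0.85 ± 0.37 (SD, n = 7), 0.53 ± 0.34 (SD, n = 8), 0.18 ± 0.44 (SD, n = 6) and 0.28 ± 0.27 (SD, n = 9) in the same order.

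**Figure D1:**
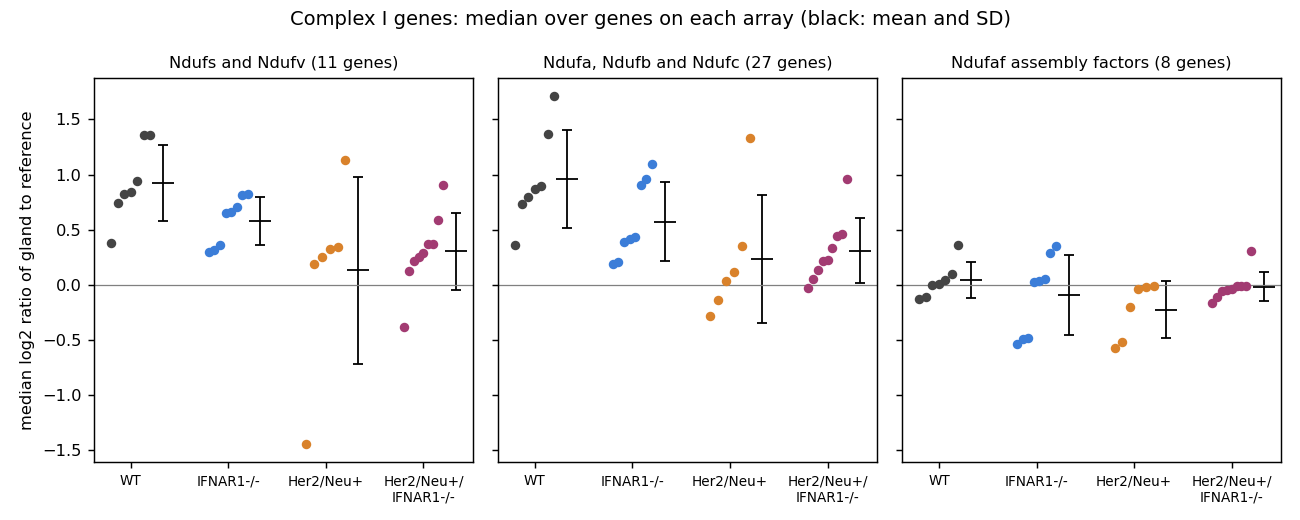
Median log2 ratio (gland over reference) of the complex I genes on each array, for 3 name classes in 4 groups. Each coloured point is 1 array and the black bars are group means with their SD. For the Ndufs and Ndufv genes, WT arrays run from 0.38 to 1.36 and Her2/Neu+ arrays from -1.44, on array 114, to 1.13. The assembly factor medians have group means from -0.23, in Her2/Neu+, to 0.04, in WT. Single arrays run from -0.57, in Her2/Neu+, to 0.36, in WT.

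Short stretches of promoter are shown because the factors that bind them are known regulators of respiratory chain genes. RefSeq start sites in build GRCm38.p6 were found for 40 of the 47 members, and the window ran from 250 bases before to 50 after each start. A YY1 motif, sought on both strands and spelled by the capitals below, was in the windows of 5 of 40 members (12.5%), against 2.41% of the 9296 measured genes with a window. All 5 matches lay downstream of the start site and on the gene's own strand. They are printed 5′ to 3′ on the gene's strand with the motif in capitals.

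Ndufs7, chr10:80249463-80249492, plus strand, from 25 bases after the start: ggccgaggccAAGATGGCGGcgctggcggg
Ndufs6, chr13:73328433-73328459, minus strand, from 34 bases after the start: ggtcaccggcAAGATGGCGGcggtgct
Ndufs4, chr13:114388045-114388069, minus strand, from 36 bases after the start: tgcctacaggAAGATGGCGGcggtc
Ndufa9, chr6:126849096-126849125, minus strand, from 30 bases after the start: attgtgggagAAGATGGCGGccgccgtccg
Ndufaf8, chr11:120098934-120098963, plus strand, from 11 bases after the start: ggcagggcccAAGATGGCGGcgccctcgag

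The distance is that of the motif's first base. An NRF1 motif, sought on both strands with any base in the sixth place, was in the windows of 9 of 40 members (22.5%), against 11.3% of measured genes. Ndufb4 held 3 such matches and Ndufs6 held 1 beside its YY1 match, and these 4 are shown, in capitals, as the cases of several matches in 1 window. The Ndufb4 matches are on the gene's own strand. That of Ndufs6 is on the opposite strand, so its capitals are the motif's reverse complement.

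Ndufb4, chr16:37654540-37654569, minus strand, position -191: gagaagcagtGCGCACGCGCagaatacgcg
Ndufb4, chr16:37654428-37654457, minus strand, position -79: ccttgtgcgcGCGCAGGCGCacttcctgag
Ndufb4, chr16:37654371-37654400, minus strand, position -22: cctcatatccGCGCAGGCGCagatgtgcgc
Ndufs6, chr13:73328479-73328508, minus strand, position -16: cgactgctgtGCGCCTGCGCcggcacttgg

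An ETS motif, CCGGAAGT on either strand, was in 1 of 40 windows (2.5%), that of Ndufs3, against 8.89% of measured genes. The ERR alpha motif TCAAGGTCA was in 0 of 40 windows, against 0.312% of measured genes. A match is a description of the letters in the window and not a bound site, and the motifs are of different lengths and base composition. The YY1 matches fell in members of every name class: of the 5, Ndufs7 is among the genes called lower with the oncogene below, and the other 4 were not called.

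Across both receptor states, 6 complex I genes were lower with the oncogene and none was higher, by an adjusted p under 0.05 in limma fitted over all genes. The call took in 0.864% of all 11463 genes in the lower direction, 1.71% in the higher and 2.57% in either. These 6 were Ndufb8, Ndufa10, Ndufa1, Ndufa7, Ndufs7 and Ndufc2, so 1 was a core gene and 5 were accessory. At an unadjusted p under 0.05, 23 members were lower (7.55% of all genes) and 0 were higher (11.3% of all genes). The change was below 0 for 41 of 46 members, with a median of -0.44, against 42.6% of all genes and a median of 0.07. Some markers of other cell types were called in the same contrast. Of 6 basal and myoepithelial markers, 2 were called lower, Krt14 (-1.67 ± 0.44 SE, limma adjusted p = 0.0441) and Acta2 (-0.86 ± 0.23 SE, adjusted p = 0.0416), and the list's median was -0.53. Of 10 luminal markers, Epcam was called higher (2.10 ± 0.55 SE, adjusted p = 0.0388), with a list median of 0.20, and of 6 macrophage markers, Csf1r was called lower (-0.75 ± 0.20 SE, adjusted p = 0.0377), with a list median of 0.03. In each of these lists other markers went the other way without a call. They were basal Trp63 (0.59), luminal Foxa1 (-1.52), Krt19 (-1.42) and Cldn3 (-0.48), and macrophage C1qb (0.62), Adgre1 (0.37) and C1qc (0.12). The 7 skeletal muscle markers had a median of -0.46 and no call. Their part in the complex I values was not tested.

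Ndufb8 is an accessory subunit at the far end of the membrane arm. Its level ran from -0.03 through 0.85 to 1.19 in WT, from -0.55 through 0.44 to 1.27 in IFNAR1-/-, from -1.89 through -0.58 to 0.21 in Her2/Neu+ and from -0.72 through -0.33 to 1.18 in Her2/Neu+/IFNAR1-/- glands. Of the 15 oncogene arrays, 14 were below the mean of the 15 others, but the highest double mutant array lay near the top of the WT range. With the oncogene, Ndufb8 fell by 0.98 ± 0.22 log2 units (SE, limma adjusted p = 0.0179).

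Ndufa10, an accessory subunit of the membrane arm related to nucleoside kinases, ran from -1.34 through 0.09 to 0.68 in WT and from -1.09 through 0.25 to 0.86 in IFNAR1-/- glands. It ran from -1.88 through -0.73 to 0.01 in Her2/Neu+ and from -3.15 through -1.01 to -0.00 in Her2/Neu+/IFNAR1-/- glands. All 15 oncogene arrays were below the mean of the others, although the ranges overlapped. Ndufa10 fell by 1.09 ± 0.28 (SE, limma adjusted p = 0.0326).

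Ndufs7 is the only core gene of the 6 and carries the last iron-sulfur cluster before ubiquinone. Its levels were narrow without the oncogene, from 0.29 through 0.65 to 0.84 in WT and from 0.09 through 0.38 to 0.91 in IFNAR1-/- glands. They ran from -2.54 through -0.28 to 0.43 in Her2/Neu+ and from -0.52 through 0.17 to 0.79 in Her2/Neu+/IFNAR1-/- glands. The lowest value was that of array 114, and 13 of 15 oncogene arrays were below the mean of the others. Ndufs7 fell by 0.76 ± 0.21 (SE, limma adjusted p = 0.0441).

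Ndufa1 is a small X-linked membrane subunit needed early in assembly. It ran from 0.49 through 1.21 to 1.76 in WT and from -0.00 through 0.49 to 1.45 in IFNAR1-/- glands. It ran from -0.37 through 0.12 to 1.02 in Her2/Neu+ and from -0.42 through 0.18 to 0.91 in Her2/Neu+/IFNAR1-/- glands. IFNAR1-/- arrays reached down into the oncogene groups' range, while only the lower WT arrays did. Ndufa1 fell by 0.69 ± 0.18 (SE, limma adjusted p = 0.0353).

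Ndufa7, an accessory subunit of the matrix arm, had levels from 0.14 through 0.68 to 0.93 in WT and from 0.35 through 0.57 to 1.10 in IFNAR1-/- glands. It ran from -1.42 through -0.16 to 0.18 in Her2/Neu+ and from -0.18 through 0.08 to 1.51 in Her2/Neu+/IFNAR1-/- glands, where the value of 1.51 is array 103. In Her2/Neu+ glands only the top array reached the WT range, and 14 of 15 oncogene arrays were below the mean of the others. Ndufa7 fell by 0.70 ± 0.18 (SE, limma adjusted p = 0.0372).

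Ndufc2, a membrane-arm subunit, ran from -0.35 through 0.00 to 0.45 in WT and from -1.49 through -0.03 to 0.65 in IFNAR1-/- glands. It ran from -2.68 through -1.14 to 0.18 in Her2/Neu+ and from -1.42 through -0.90 to 0.23 in Her2/Neu+/IFNAR1-/- glands. The lowest Her2/Neu+ values were those of arrays 114 and 119. Ndufc2 fell by 0.93 ± 0.26 (SE, limma adjusted p = 0.0478).

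**Figure D2:**
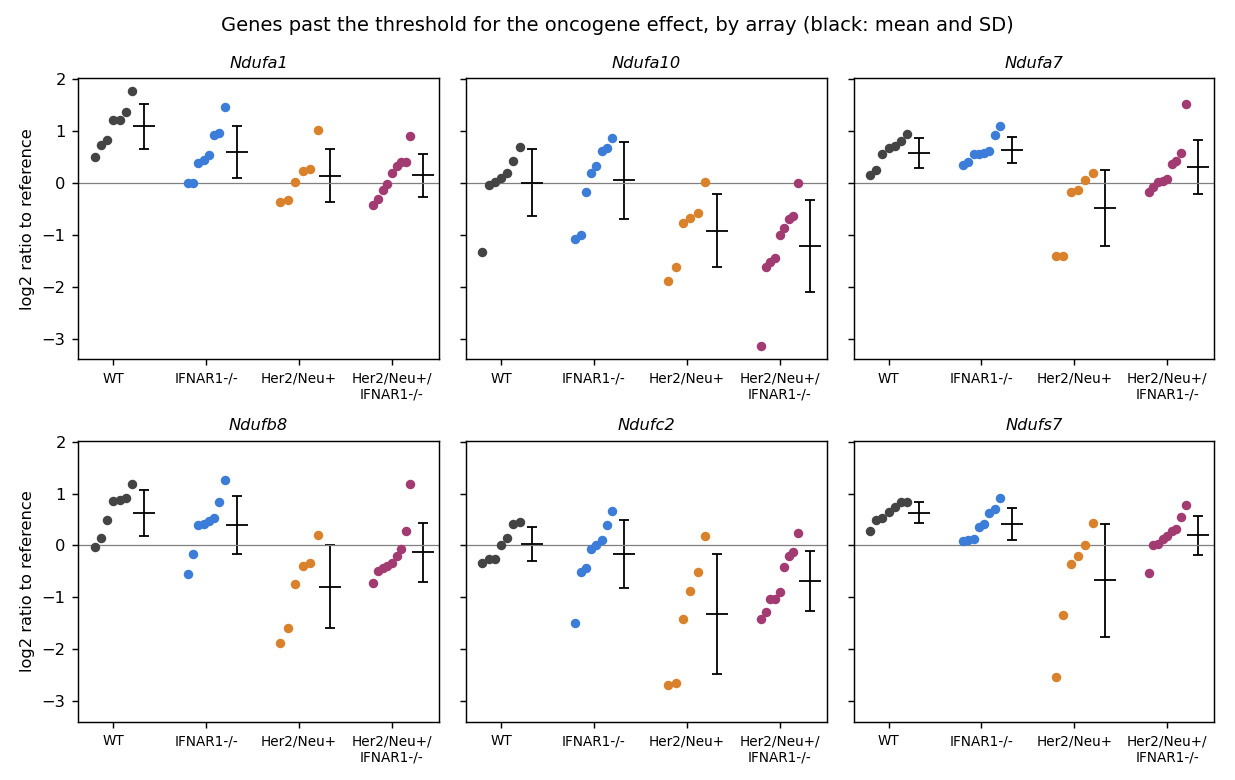
Log2 ratio (gland over reference) on every array for the 6 genes called lower with the oncogene, by group. Points are arrays and bars are group means with their SD. For Ndufa10, all 15 oncogene arrays lie below the mean of the 15 others, and for Ndufs7 the lowest point, at -2.54, is Her2/Neu+ array 114.

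How many genes passed depended on single arrays and on the array sets. Without Her2/Neu+ arrays 114 and 119, Ndufa10 alone remained called (limma adjusted p = 0.0283), and Ndufb8 was at -0.74 (adjusted p = 0.0644). Ndufs7 was at -0.44 in place of -0.76 (adjusted p = 0.1) and Ndufc2 at -0.60 in place of -0.93 (adjusted p = 0.176). Without the 4 arrays high in muscle markers, Ndufa10 again was the 1 call, at an adjusted p of 0.0408, with Ndufb8 at -0.86, Ndufc2 at -0.94, Ndufs7 at -0.74, Ndufa7 at -0.59 and Ndufa1 at -0.57. In all 30 fits that left out 1 array, Ndufb8 passed in 30, Ndufa10 in 21, Ndufa1 in 19, Ndufa7 in 18, Ndufs7 in 11 and Ndufc2 in 6. The number called ran from 1, reached without any one of WT 53, 54 or 56 or IFNAR1-/- 47 or 50, to 13 without Her2/Neu+ 115. Slides could be inferred only from the labels' block numbers and the sample order, which put them in 2 sets, and 0 members passed as lower in set 1 alone (0.0173% of all genes) and 13 in set 2 alone (3.28%), whereas the median change of all members was -0.35 and -0.54. The only Her2/Neu+ arrays of set 2 are 114 and 119, so these 2 arrays carry its Her2/Neu+ mean. With the set as a factor, all 6 stayed called, at limma adjusted p-values from 0.0132 (Ndufb8) to 0.0362 (Ndufs7). With the inferred slide as a random block, Ndufb8 alone passed (limma adjusted p = 0.0392, 0.157% of all genes called lower). The other 5 then had changes from -1.02 (Ndufa10, adjusted p = 0.108) to -0.72 (Ndufa1, adjusted p = 0.0813). With the labels' block number as a factor, Ndufc2 and Ndufs7 no longer passed (adjusted p = 0.0831 and 0.0744). The adjusted p is set over all genes, and the share of all genes called lower moved as well, from 0.0173% in set 1 to 3.28% in set 2. For the fits with arrays left out that share is not given here. A count of members called does not by itself describe complex I.

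Of the 6 core genes, Ndufs7 passed the test of the pooled oncogene change, and the other 5 had values below 0 that did not. All 11 genes named Ndufs or Ndufv had a change below 0 over both receptor states, with a median of -0.72, and 9 reached an unadjusted p under 0.05. Of the 27 named Ndufa, Ndufb or Ndufc, 26 were below 0, with a median of -0.44, and 14 reached it. The 6 core genes alone had a median of -0.64. The distance between the name classes rested on 1 array: without array 114 the median of the Ndufs and Ndufv genes was -0.40. That of the Ndufa, Ndufb and Ndufc genes ran from -0.51 to -0.39 over the fits that left out 1 array. The median of all members, assembly factors included, was -0.37 without array 114. No test of core against accessory genes was made, since the members share arrays.

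Ndufs1 carries most of the iron-sulfur clusters of the NADH-oxidising end. Its level ran from 0.38 through 0.88 to 1.33 in WT, from -0.06 through 0.52 to 0.67 in IFNAR1-/-, from -3.82 through -0.27 to 0.71 in Her2/Neu+ and from -0.65 through -0.07 to 0.88 in Her2/Neu+/IFNAR1-/- glands. The value of -3.82 is array 114, and the next Her2/Neu+ array was at -0.66. Its pooled change was -0.95 ± 0.28 (SE, limma adjusted p = 0.0689).

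Ndufv1 holds the flavin that accepts electrons from NADH, and its partner Ndufv2 carries an iron-sulfur cluster. Ndufv1 had group means of 1.04 ± 0.46 (SD, n = 7), 0.68 ± 0.42 (SD, n = 8), 0.29 ± 0.41 (SD, n = 6) and 0.35 ± 0.37 (SD, n = 9) in the order WT, receptor loss, oncogene and both, with a pooled change of -0.54 ± 0.16 (SE, limma adjusted p = 0.0675). Ndufv2 had means of 0.98 ± 0.37, 0.59 ± 0.30, -0.05 ± 1.47 and 0.56 ± 0.31 (SD) in the same order. The wide SD in Her2/Neu+ came with the value of -2.90 on array 114, the other 5 arrays being at 0.26 or above, and the pooled change was -0.52 ± 0.26 (SE, limma adjusted p = 0.268).

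Ndufs3, a scaffold of the ubiquinone-side module, had means of 1.42 ± 0.40, 0.93 ± 0.29, 0.88 ± 0.44 and 0.60 ± 0.51 (SD) in the same order. The WT mean was highest, and all 4 groups overlapped (pooled change -0.44 ± 0.16 SE, limma adjusted p = 0.144). Ndufs8, which carries 2 iron-sulfur clusters, ran from -1.69 through -0.43 to -0.08 in WT and from -1.48 through -0.57 to 0.43 in IFNAR1-/- glands. It ran from -2.01 through -0.89 to -0.70 in Her2/Neu+ and from -2.87 through -1.80 to -0.28 in Her2/Neu+/IFNAR1-/- glands. The double mutant had the lowest mean of Ndufs8 and of Ndufs3, whereas Her2/Neu+ glands had that of the other 4 core genes, within overlapping ranges (Ndufs8 pooled change -0.75 ± 0.24 SE, limma adjusted p = 0.0855).

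The 8 Ndufaf assembly factors lay on both sides of 0. Their pooled oncogene changes had a median of -0.01, with 4 of 8 below 0, and none reached an unadjusted p under 0.05. The median of the assembly factors per array had group means of 0.04 ± 0.16 (SD, n = 7), -0.09 ± 0.36 (SD, n = 8), -0.23 ± 0.26 (SD, n = 6) and -0.02 ± 0.13 (SD, n = 9) in the same order. A second list of 14 assembly factors with other names, Acad9, Ecsit and Tmem126b among them, had a median pooled change of -0.06 and 0 calls. The smallest p in it was that of Dmac2, at -0.54 (limma adjusted p = 0.149). A difference between assembly factors and subunits was not tested.

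**Figure D3:**
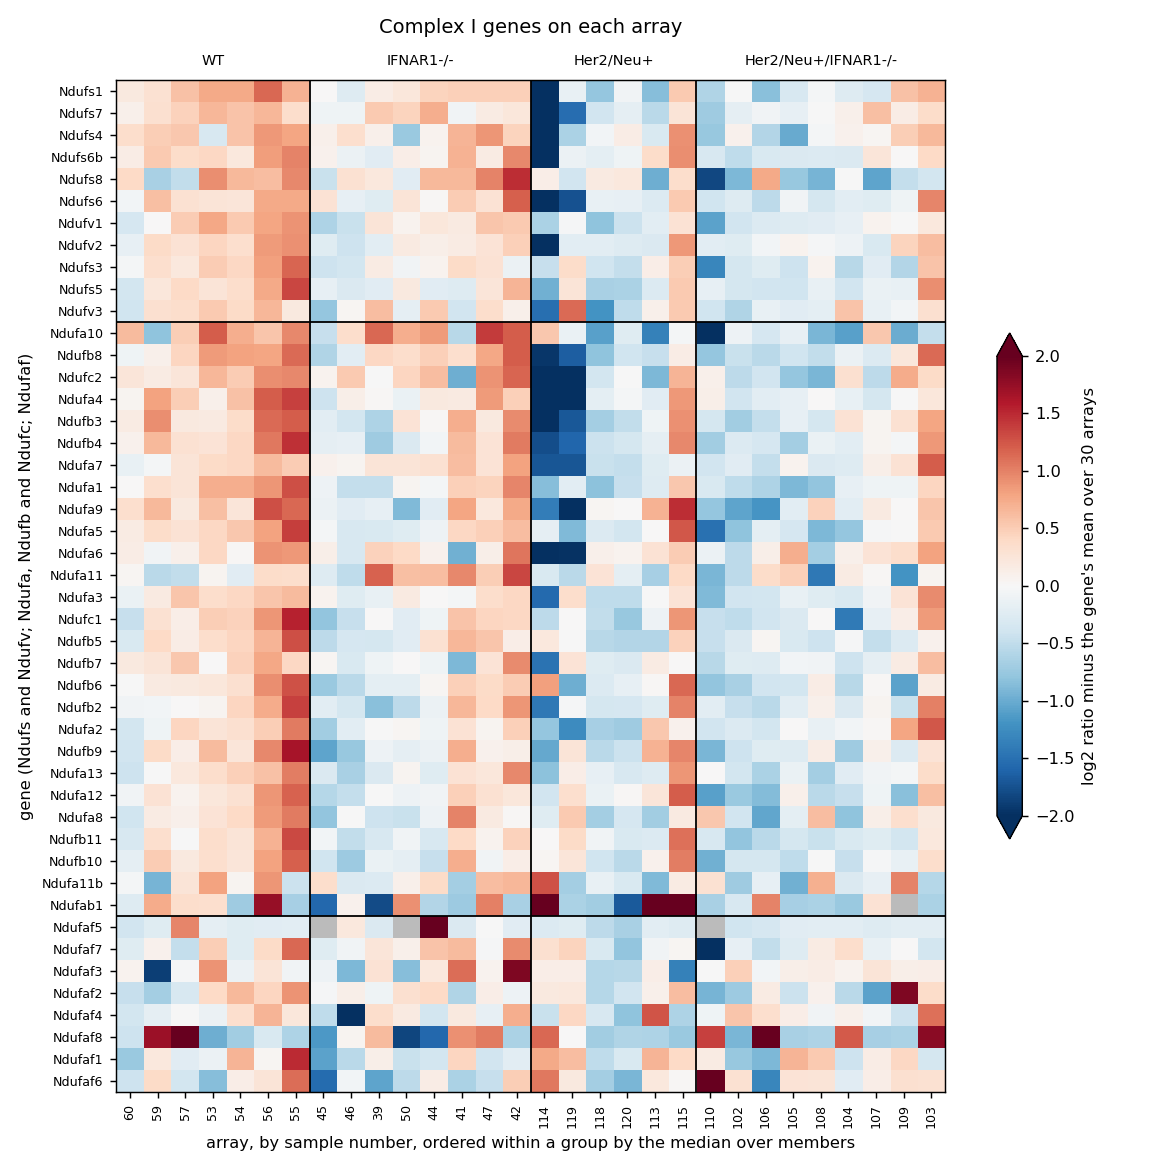
Log2 ratio of each complex I gene on each array, centred on the gene's mean over all arrays, with genes ordered by name class and arrays by group. Blue cells are below and red cells above the gene's own mean. Her2/Neu+ array 114 has 10 members more than 2 log2 units below their mean, 6 of them named Ndufs or Ndufv.

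Without interferon receptor loss, no member passed the test for Her2/Neu+ against WT (limma), which called 0.131% of all genes. The change was nonetheless below 0 for 44 of 46 members, against 51.5% of all genes, and 24 were lower at an unadjusted p under 0.05, against 6.69%, and 0 higher, against 5.37%. The median change was -0.62, and -0.02 over all genes. Ndufb8 had the smallest p (-1.43 ± 0.33 SE, limma adjusted p = 0.0855), next to Ndufs7 (-1.30 ± 0.31 SE, adjusted p = 0.0855) and Ndufa7 (-1.07 ± 0.27 SE, adjusted p = 0.107). The largest differences beside Ndufb8 were in Ndufs1 (-1.52 ± 0.43 SE, adjusted p = 0.145) and Ndufa4 (-1.49 ± 0.41 SE, adjusted p = 0.141). Without array 114 these were -0.89 for Ndufs1 and -1.02 for Ndufa4, beside -1.21 for Ndufb8.

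By class, the median of this contrast was -1.02 for Ndufs and Ndufv genes, -0.64 for Ndufa, Ndufb and Ndufc genes and -0.19 for assembly factors. Without array 114 the first of these was -0.47 and the median of all members was -0.47 too. That of the Ndufa, Ndufb and Ndufc genes ran from -0.83 to -0.49 over the fits that left out 1 array. Within the array sets, the median of all members was -0.49 in set 1 and -0.69 in set 2, and that of the Ndufs and Ndufv genes -0.53 and -2.16. In set 2 alone, where arrays 114 and 119 are all of the Her2/Neu+ group, 12 members were called lower, as were 4.47% of all genes. The 3 members with the highest values in this contrast were Ndufab1 (0.48 ± 0.61 SE, limma adjusted p = 0.82), Ndufaf1 (0.09 ± 0.32 SE, adjusted p = 0.952) and Ndufaf6 (-0.06, adjusted p = 0.979).

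In mice lacking the receptor, the oncogene contrast again called no member (limma), while it called 1.31% of all genes. The change of Her2/Neu+/IFNAR1-/- against IFNAR1-/- was below 0 for 39 of 46 members, against 38.1% of all genes, with a median of -0.23 against 0.15 over all genes. At an unadjusted p under 0.05, 4 members were lower (4.96% of all genes) and 0 higher (13.5%). Ndufa10 had the smallest p (-1.26 ± 0.36 SE, limma adjusted p = 0.0716), next to Ndufs8 (-1.07 ± 0.31 SE, adjusted p = 0.0745) and Ndufa11, a membrane-arm subunit (-0.89 ± 0.28 SE, adjusted p = 0.0954). Ndufaf5, which modifies Ndufs7 during assembly, differed by -1.04 ± 0.55 (SE, adjusted p = 0.312), and by -0.14 without IFNAR1-/- array 44.

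The highest values of this contrast were those of the assembly factors Ndufaf6 (0.84 ± 0.42 SE, limma adjusted p = 0.28), Ndufaf8 (0.68 ± 0.54 SE, adjusted p = 0.517) and Ndufaf4 (0.39 ± 0.31 SE, adjusted p = 0.525). The medians by class were -0.33 for Ndufs and Ndufv, -0.23 for Ndufa, Ndufb and Ndufc and 0.09 for Ndufaf. The oncogene contrasts with and without the receptor use different arrays, and 39 of 46 members were below 0 in both, against 23% of all genes.

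**Figure D4:**
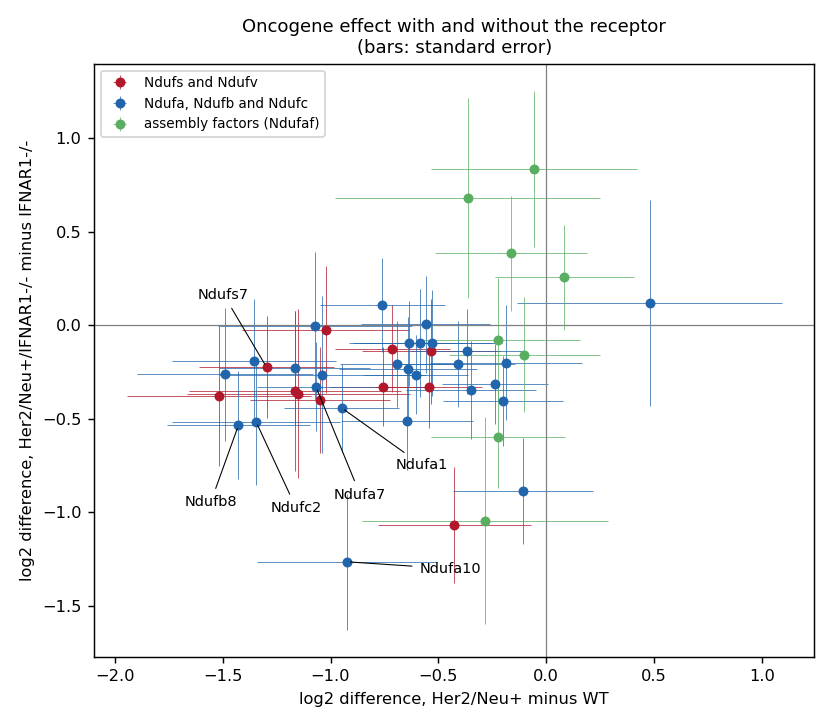
Change with the oncogene in mice with the receptor (Her2/Neu+ minus WT, horizontal axis, log2) against that in mice without it (Her2/Neu+/IFNAR1-/- minus IFNAR1-/-, vertical axis, log2), 1 point per complex I gene, coloured by name class with bars of 1 SE. Of the 46 points, 39 lie below 0 on both axes, and Ndufaf points lie nearer 0 on the horizontal axis than the Ndufs and Ndufv points.

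Loss of the receptor alone called no complex I gene (limma, IFNAR1-/- against WT, 0.0262% of all genes called). The change was below 0 for 38 of 46 members, against 58.1% of all genes, with a median of -0.37 against -0.08. At an unadjusted p under 0.05, 3 members were lower (3.99% of all genes) and 1 was higher (2.88%), The smallest p-values were those of Ndufb10 (-0.58 ± 0.24 SE, limma adjusted p = 0.684), Ndufb9 (-0.68 ± 0.30 SE, adjusted p = 0.7) and Ndufs3 (-0.50 ± 0.23 SE, adjusted p = 0.725). Ndufb9 was also the most negative, with Ndufab1 (-0.63 ± 0.57 SE) and Ndufa9 (-0.63 ± 0.45 SE) next. On the other side were Ndufaf5 (0.85 ± 0.57 SE), Ndufa11 (0.62 ± 0.30 SE) and Ndufaf3 (0.34 ± 0.35 SE), at adjusted p-values of 0.807, 0.725 and 0.88. The Ndufaf5 value rested on IFNAR1-/- array 44, at 5.51 where the next array was at 0.41, and without that array it was -0.05.

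With the oncogene present, loss of the receptor called no member either (limma, 0.0785% of all genes called). The change of Her2/Neu+/IFNAR1-/- against Her2/Neu+ was below 0 for 17 of 46 members, against 40.9% of all genes, with a median of 0.14 against 0.11. At an unadjusted p under 0.05, 2 members were lower (4.18% of all genes) and 3 higher (6.99%). Ndufa7 (0.79 ± 0.26 SE, limma adjusted p = 0.273), Ndufs7 (0.86 ± 0.29 SE, adjusted p = 0.284) and Ndufa6, which partners the acyl carrier protein (0.85 ± 0.43 SE, adjusted p = 0.457), had the most positive values. Ndufab1 (-0.99 ± 0.59 SE, adjusted p = 0.515), Ndufa12 (-0.65 ± 0.26 SE, adjusted p = 0.354) and Ndufs8 (-0.54 ± 0.34 SE, adjusted p = 0.528) had the most negative.

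The Ndufs and Ndufv genes had a median of 0.51 in this contrast, which rested on array 114: without it the median was 0.003, that of all members -0.05 in place of 0.14, and the Ndufs7 difference 0.49 in place of 0.86. Ndufa6 was then at 0.32. Without arrays 114 and 119 the difference for Ndufa6 was -0.12. Since the contrast shares its Her2/Neu+ arrays with Her2/Neu+ against WT, a low value on array 114 enters both with opposite sign. In array set 2 alone, 11 members were called higher in this contrast (5.51% of all genes), again against arrays 114 and 119.

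Whether loss of the receptor acted differently with the oncogene was tested as an interaction, and no member passed (limma, 0.0174% of all genes called). The interaction was below 0 for 10 of 46 members, against 39.5% of all genes, with a median of 0.49 against 0.18 over all genes, and 5 were higher (6.86% of all genes) and 0 lower (2.77%) at an unadjusted p under 0.05. Ndufs7 had the smallest p (1.07 ± 0.41 SE, limma adjusted p = 0.483). Without array 114 the median over members was 0.28. In set 2 alone 8 members were called higher (3.21% of all genes), and 0 in set 1 alone (0.00867%). Pooled over both oncogene states, receptor loss called no member (limma, 0.0698% of all genes called), with 28 of 46 members below 0 (47.5% of all genes) and a median of -0.07 against 0.02. At an unadjusted p under 0.05, 7 were lower (4% of all genes) and 1 higher (4.61%). The lowest p in that contrast was that of Ndufa12 (-0.55, limma adjusted p = 0.418).

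Several members have roles outside complex I. Ndufa4 is now assigned to cytochrome c oxidase, complex IV. It ran from 0.64 through 1.17 to 1.95 in WT, from 0.17 through 0.73 to 1.43 in IFNAR1-/-, from -2.60 through 0.37 to 1.45 in Her2/Neu+ and from 0.20 through 0.44 to 0.80 in Her2/Neu+/IFNAR1-/- glands. Its Her2/Neu+ values spread far below those of the other groups, on arrays 114 and 119, and its pooled change was -0.87 ± 0.27 (SE, limma adjusted p = 0.0806).

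Its paralogue Ndufa4l2, a gene induced by low oxygen in many cells, was the 1 member not tested, with values on 3 of 6 Her2/Neu+ and 4 of 9 Her2/Neu+/IFNAR1-/- arrays. Where present, its level had a mean of 1.24 ± 1.67 (SD, n = 7) in WT and 2.41 ± 1.32 (SD, n = 8) in IFNAR1-/- glands. The 3 Her2/Neu+ values had a mean of 1.28 ± 2.15 (SD) and the 4 double mutant values 0.77 ± 1.52 (SD). These spreads are wide, and the groups overlapped.

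Ndufab1 is the mitochondrial acyl carrier protein, used in fatty acid and iron-sulfur synthesis as well as in complex I. It had the largest SD over arrays of the members, 1.17, and ran from -1.06 through 1.31 to 3.31 in Her2/Neu+ glands against group means of 0.84 ± 0.87 in WT, 0.21 ± 1.03 in IFNAR1-/- and 0.33 ± 0.62 in Her2/Neu+/IFNAR1-/- glands (SD). Its pooled oncogene change was 0.30 ± 0.41 (SE, limma adjusted p = 0.724). Ndufa13, also known as Grim19 and first described as a gene induced by interferon and retinoic acid during cell death, had means of 0.99 ± 0.46, 0.68 ± 0.49, 0.58 ± 0.57 and 0.47 ± 0.33 (SD) in WT, IFNAR1-/-, Her2/Neu+ and double mutant glands. It was among the least variable members, with an SD over arrays of 0.47 beside 0.46 for Ndufb5 and 0.48 for Ndufb11, and its change with receptor loss alone was -0.31. Ndufaf8 and Ndufaf5, partners in assembly, had the next largest SDs after Ndufab1, 1.13 and 1.10.

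The subunits varied together from gland to gland. With each group's mean removed, the Pearson r of a member with the median of the other members over 30 arrays had a median of 0.58, and it was above 0.5 for 30 of 46. It was highest for Ndufa12 and Ndufa1, at 0.87 each, and lowest for Ndufaf8, at -0.13, and no Ndufaf gene was above 0.45. For all genes, the median r with the members' median was 0.06, and 820 of 11454 were above 0.5. Values on 1 array share its RNA, labelling and scan, so this is a description.

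The called genes differed in this. Ndufa1 followed the others closely, whereas Ndufa10 had an r of 0.19, Ndufc2 of 0.41 and Ndufs7 of 0.45, as Ndufs8 had of 0.35. The SD within groups had a median of 0.58 over the members and 0.72 over all genes.

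For 8 members more than 1 probe was present, and for some the probes disagreed. Of the Ndufb6 probes, 1 had a Her2/Neu+ minus WT difference of 0.61 ± 0.58 (SE) and the other -1.31 ± 0.49 (SE), and the gene's value is their mean. Of the Ndufv3 probes, 1 had -1.28 ± 0.37 (SE) and the other 0.21 ± 0.46 (SE), the latter with 13 values that recur with the same digits elsewhere on its array. The Ndufb4 probes agreed better, at -1.01 and -1.32, as did the Ndufa5 probes in direction, at -0.35 and -0.94. For Her2/Neu+/IFNAR1-/- minus IFNAR1-/-, 1 Ndufaf4 probe had 0.88 ± 0.33 (SE) and the other -0.11 ± 0.40 (SE). The latter had 15 values that recur with the same digits elsewhere on their arrays. The values of the single-probe members, which include all 6 core genes, have no such check.

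Genes of the other respiratory complexes gave similar values. Their list held nuclear subunits and, for complex II, also the assembly factors Sdhaf1, Sdhaf2 and Sdhaf4. Of 45 tested nuclear genes of complexes II to V, 42 had a pooled oncogene change below 0, against 42.6% of all genes. The median was -0.42, against 0.07 over all genes. Of the 45, 4 were called lower (0.864% of all genes) and none higher (1.71%). These 4 were Cox7a1, a complex IV isoform of muscle and brown fat (-1.29 ± 0.30 SE, limma adjusted p = 0.0236), Uqcrfs1, the Rieske iron-sulfur protein of complex III (-1.45 ± 0.35 SE, adjusted p = 0.0256), Uqcrc2, a complex III core protein (-0.73 ± 0.18 SE, adjusted p = 0.0256), and Atp5c1, the central stalk of ATP synthase (-0.81 ± 0.20 SE, adjusted p = 0.0303). By complex, 0 of 7 tested genes were called in II, 2 of 9 in III, 1 of 15 in IV and 1 of 14 in V.

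Uqcrfs1 had mean levels of 1.01 in WT, 0.52 in IFNAR1-/-, -1.08 in Her2/Neu+ and -0.30 in Her2/Neu+/IFNAR1-/- glands. Cox7a1 had means of 3.48, 1.93, 1.60 and 1.24 in the same order, so that its WT glands stood above the other 3 groups. It is also 1 of the 4 tested brown and beige fat markers, of which it alone was called with the oncogene. Ppargc1a, also on that list, changed in the other direction, by 1.43 ± 0.49 (SE, limma adjusted p = 0.109). The mean level of those markers ran from 3.55 through 4.02 to 4.46 in WT, 3.21 through 3.42 to 3.98 in IFNAR1-/-, 3.27 through 3.84 to 4.32 in Her2/Neu+ and 3.19 through 3.71 to 5.15 in double mutant glands, with Cidea and Cox8b at or next to the scale's limit of 6. Their part in the complex I values was not tested.

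Regulators of mitochondrial biogenesis gave other values than the subunits, a difference that was not tested. Of 11 tested, 0 were called (2.57% of all genes) and 3 were higher at an unadjusted p under 0.05 (11.3% of all genes). The median pooled change was 0.22, against 0.07 over all genes. Ppargc1a, the coactivator of mitochondrial genes, had mean levels of 0.57 in WT, 0.10 in IFNAR1-/-, 1.54 in Her2/Neu+ and 1.98 in Her2/Neu+/IFNAR1-/- glands, with a change of 1.43 ± 0.49 (SE, limma adjusted p = 0.109). Of the 13 mitochondrially encoded subunits listed, 0 were tested.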

How the data were processed

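The deposited values are log2 ratios of gland over reference on each array, per the labels' dyes. The scanner settings, background correction, normalization and log base used by the authors are not given in the sources used here. Base 2 was inferred from values that stop at 6 and -6, and array medians lie near 0. Of 20896 probes, 17376 had 1 gene symbol in the platform annotation and 3520 had none. A probe blank on more than 50% of a group's arrays was left out, 54 of 56 member probes were kept, and probes of a gene were averaged.

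All 30 arrays entered 1 limma fit (R 4.3.3, limma 3.58.1) with a mean per group and no covariate. P-values are two-sided and adjusted by Benjamini-Hochberg over all genes of a contrast, with a threshold of 0.05, and measure only the spread between these samples, of which the labels say no more than that they are separate. The script was tested on simulated data. Slides were inferred from block numbers and sample order, and no inferred slide held both groups of a pairwise contrast, so slide and group cannot be told apart there. Values that recur with the same digits on an array made up 8.35% of member values and 32.1% of all values, and were kept.

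Members and lists were chosen with earlier results of these data known. Named with values were members past the threshold, the 3 highest, 3 lowest and 3 of smallest p in each pairwise contrast, the core subunits, Ndufa4, Ndufa4l2, Ndufab1 and Ndufa13, the 3 most and 3 least variable, members whose probes disagreed, and called genes of the other lists. Muscle, fat and epithelial marker levels are means over 4 to 10 tested markers. Promoter windows are RefSeq's, build GRCm38.p6. Alternatives were other normalization, centring, filters, probe rules, weights, batch terms and arrays left out. Leaving out Her2/Neu+ 114 and 119, or all 4 muscle-high arrays, was chosen after seeing the data.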

Additional observations from a re-analysis of the deposited data

Results flagged for a closer look

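In 131 groups of 4 to 10 values, 15 values lay far from the rest of their group. The 29 genes checked were those named here, some of them for their spread or change in these same data. The array medians share genes and arrays with them, so no chance rate can be set beside this count. Her2/Neu+ array 114 gave 3 of the 15. Ndufs1 was at -3.82 there, with the next array at -0.66, Ndufv2 at -2.90, with the next at 0.26, and the median of the Ndufs and Ndufv genes at -1.44, with the next at 0.19. Her2/Neu+/IFNAR1-/- array 103 gave 3 on the high side: Ndufa7 at 1.51 (next 0.58), the median of all members at 0.89 (next 0.43) and that of the Ndufa, Ndufb and Ndufc genes at 0.96 (next 0.46). Her2/Neu+/IFNAR1-/- array 110 had Ndufaf6 at 3.07 (next -0.01), Ndufv1 at -0.48 (next 0.21) and the median of the assembly factors at 0.31 (next -0.01).

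Assembly factors made up much of the rest. Ndufaf5 was at 5.51 on IFNAR1-/- array 44 (next 0.41) and at 1.19 on WT array 57 (next 0.03). Ndufaf3 was at -2.03 on WT array 59 (next -0.27), where Ndufa10 was at -1.34 (next -0.05). Ndufaf4 was at -1.69 on IFNAR1-/- array 46 (next -0.11). Ndufa4l2, measured on 4 Her2/Neu+/IFNAR1-/- arrays, was at 3.05 on array 106, 1 of the arrays high in muscle markers, and its next value was 0.13.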

How the results depend on the processing

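The number of members called lower with the oncogene over both receptor states, 6 as reported, was 3 after quantile normalization, 0 in array set 1 alone, 13 in set 2 alone, 1 with a random slide block, 10 with repeated values missing, 2 without IFNAR1-/- arrays 41, 42 and 44, 1 without Her2/Neu+ 114 and 119, 1 without the 4 muscle-high arrays, and 1 to 13 when 1 array was left out. For Her2/Neu+/IFNAR1-/- against IFNAR1-/- it was 1 in place of 0 under quantile normalization, under array weights and with repeated values missing, and 0 to 2 with 1 array left out. For Her2/Neu+ against WT it was 12 in set 2 alone, 2 with repeated values missing and 0 to 10 with 1 array left out (10 without Her2/Neu+ 115, 1 without Her2/Neu+/IFNAR1-/- 103). For the pooled oncogene contrast as reported, 0.864% of all genes were called lower. The share of all genes called also moved with the setting, as given above for the array sets and the slide block. For the other settings it is not given here, so their counts have no such share beside them. These counts therefore do not describe complex I alone.

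In set 2 alone, the only Her2/Neu+ arrays are 114 and 119. In that set, 11 members were called higher in Her2/Neu+/IFNAR1-/- against Her2/Neu+ and 8 in the interaction. Pooled receptor loss called 3 higher in set 2, with no share of all genes given here. There the Ndufs and Ndufv medians were -2.16, 1.61, 1.79 and 0.66 for Her2/Neu+ against WT, the double mutant against Her2/Neu+, the interaction and pooled receptor loss, and the assembly medians of the first 3 were 0.20, -0.58 and -0.56. The Ndufs and Ndufv median ran from -1.28 to -0.47 for Her2/Neu+ against WT and from 0.0034 to 0.74 for the double mutant against Her2/Neu+ with 1 array left out, and the latter was -0.0071 without 114 and 119. The assembly median of the interaction was 0.46 with array weights, 0.49 without IFNAR1-/- 41, 42 and 44 and 0.56 without the 4 muscle-high arrays. That of the double mutant against IFNAR1-/- was 0.42 and 0.41 under the last 2 settings.

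Signs turned for differences that were not called, and the cause was not tested. Ndufaf1, Her2/Neu+ against WT, was -0.053 (quantile), -0.0027 (weights), -0.18 (set 1), -0.12 (without 114 and 119) and, with 1 array left out, -0.071 (WT 60) to 0.30. Ndufaf6 in that contrast was 0.00072 (slide block), 0.98 (set 2) and, with 1 array left out, -0.27 to 0.12 (WT 55). For the double mutant against IFNAR1-/-, Ndufaf4 was -0.11 with the probe of largest SD, Ndufaf5 0.0037 in set 1 and Ndufaf8 -0.31 in set 2. For IFNAR1-/- against WT, Ndufaf3 was -0.088 in set 2 and -0.17 without the muscle-high arrays, and Ndufaf5 -0.051 (IFNAR1-/- 44) to 1.07 with 1 array left out. Ndufa6, double mutant against Her2/Neu+, was -0.12 without 114 and 119. Of the other main counts, medians and motif shares, 671 values under other settings and 1235 with 1 array left out stayed within the spread between arrays or, for counts, within 1.5 times. Motif shares were held to their 95% interval. Counts of 0 that stayed at 0 are included, and the spread is wide, at 0.50 for the Ndufs and Ndufv median. Staying within these bounds therefore does not show that a value is stable. Quantile normalization moved the median of all genes from 0.15 to 0.04 for the double mutant against IFNAR1-/- and from 0.18 to 0.05 for the interaction. No paired analysis was possible because the groups share no sample numbers. The number of arrays and the limit of 6 on the scale bound the precision.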
